A study of Mus musculus with 16 samples.

Results

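The genes examined here are 9 interferon-stimulated genes, Isg15, Ifit1, Ifit3, Irf7, Oasl2, Stat2, Usp18, Ifih1 and Rsad2, taken by name out of 51060 genes measured in brown adipose tissue (BAT) of mice lacking optic atrophy 1 (OPA1) in thermogenic adipocytes. The rule takes them by name and uses no measured value. All 9 were detected and all 9 passed the filter on low counts. The question was whether the mitochondrial damage that follows loss of OPA1 came with an interferon response in this tissue.

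OPA1 is a protein of the inner mitochondrial membrane that is needed for fusion of mitochondria and for the shape of cristae. Interferons are secreted proteins that act through the JAK kinases on transcription factors that include STAT2 and IRF9, which bind the interferon-stimulated response element (ISRE) in target promoters and switch on a shared set of antiviral genes. Mitochondrial DNA or double-stranded RNA that leaves the organelle can be sensed in the cytosol through cGAS and STING or through RIG-I, MDA5 and MAVS, and this is the known route by which damaged mitochondria induce these genes.

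RNA was sequenced from interscapular BAT of 16 mice aged 7 weeks, with 4 WT females, 4 OPA1 BKO females, 4 WT males and 4 OPA1 BKO males. All were on a C57Bl/6J background, fed chow ad libitum and kept at room temperature. OPA1 BKO mice carried floxed Opa1 alleles and the Ucp1-Cre transgene, which is active in cells that express Ucp1, so the other cells of the tissue kept Opa1. WT mice were littermates, and the study's methods describe controls as homozygous floxed mice without Cre. The labels name no litter, batch or date, and mice are numbered 1 to 4 within each group only as names.

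Opa1 was checked before the other genes. Its level in CPM, counts scaled to a common library size after TMM normalisation, lay between 17.9 and 36.9 in the OPA1 BKO mice against 151.9 to 209.6 in their controls, so the genotypes did not overlap. The log2 fold change was -2.82 (SE 0.15, adjusted p = 7.35e-10), and every library matched its labelled genotype. Here and throughout, a log2 fold change is OPA1 BKO over WT and an adjusted p is from edgeR's quasi-likelihood test with Benjamini-Hochberg adjustment over the 15632 genes tested, called below 0.05. The tissue expressed its defining marker Ucp1 at a mean of 3436 CPM after loss of OPA1 against 4758 CPM in controls (adjusted p = 0.074). Estimated counts per library ran from 13607283 to 23114534. In bulk tissue, fewer cells of a type and less RNA per cell cannot be told apart.

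Mitochondrially encoded transcripts contributed 6.76% ± 1.55 (SD, n = 8; range 4.44 to 9.02%) of an OPA1 BKO library, against 26.7% ± 2.42 (SD, n = 8; range 23.3 to 30.5%) of a WT library. The value of a nuclear gene given as a share of its library depends on this. TMM scaling factors, which adjust for such differences in composition, ran from 1.18 to 1.27 in OPA1 BKO libraries and from 0.746 to 0.880 in WT libraries. All values in CPM below carry this adjustment, and TPM values do not.

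The promoters of the 9 genes are shown first, so that the ISRE named above can be looked for in each. Its part in the measured levels was not tested. RefSeq promoter windows on GRCm38.p6, running from 250 bases before to 50 bases after the start site, were matched by symbol for 8 of the 9 genes. Usp18 had no entry. The ISRE core was searched as 2 copies of GAAA on the same strand with 2 bases of any kind between them, on both strands and with overlapping matches counted. It was in 6 of the 8 windows, against 3.44% of the 32851 windows of the same length. Irf7 and Oasl2 had no match in these windows. Matches are descriptions of these letters and not measured binding sites.

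The 250 bases before the start site are given 5′ to 3′ on the gene's own strand for the 5 genes with a match there, with every base of a match in capitals, so that the number, spacing and orientation of the elements can be compared.
Isg15 (chr4:156200819-156201068, minus strand): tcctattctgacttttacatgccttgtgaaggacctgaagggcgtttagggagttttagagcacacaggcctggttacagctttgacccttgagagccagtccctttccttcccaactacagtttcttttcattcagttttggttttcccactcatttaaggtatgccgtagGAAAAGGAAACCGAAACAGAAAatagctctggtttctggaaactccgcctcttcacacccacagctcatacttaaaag
Ifit1 (chr19:34640639-34640888, plus strand): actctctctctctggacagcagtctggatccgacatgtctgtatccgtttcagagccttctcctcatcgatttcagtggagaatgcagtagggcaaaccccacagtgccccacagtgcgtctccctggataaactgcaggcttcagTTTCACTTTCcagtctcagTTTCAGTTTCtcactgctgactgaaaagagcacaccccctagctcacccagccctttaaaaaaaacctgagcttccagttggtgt
Ifit3 (chr19:34583279-34583528, plus strand): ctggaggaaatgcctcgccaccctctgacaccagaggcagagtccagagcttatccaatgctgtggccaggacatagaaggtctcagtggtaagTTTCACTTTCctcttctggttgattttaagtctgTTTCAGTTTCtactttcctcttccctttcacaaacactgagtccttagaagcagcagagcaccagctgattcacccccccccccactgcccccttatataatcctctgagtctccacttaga
Stat2 (chr10:128270248-128270497, plus strand): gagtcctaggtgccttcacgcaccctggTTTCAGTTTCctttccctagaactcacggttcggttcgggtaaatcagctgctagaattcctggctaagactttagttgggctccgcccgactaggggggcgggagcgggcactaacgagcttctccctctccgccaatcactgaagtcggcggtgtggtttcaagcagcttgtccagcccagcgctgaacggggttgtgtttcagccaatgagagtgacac
Rsad2 (chr12:26456453-26456702, minus strand): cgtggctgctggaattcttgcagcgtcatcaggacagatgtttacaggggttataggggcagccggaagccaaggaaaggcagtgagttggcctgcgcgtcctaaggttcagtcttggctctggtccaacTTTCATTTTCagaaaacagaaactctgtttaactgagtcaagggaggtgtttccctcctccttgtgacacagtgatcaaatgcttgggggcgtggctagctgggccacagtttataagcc
Isg15 held 3 overlapping matches on its own strand, from -78 to -57, counted from +1 at the start site. Ifit1 and Ifit3 each held 2 matches on the other strand, ending at -76 in Ifit1 and at -113 in Ifit3. Stat2 had 1 match ending at -213 and Rsad2 had 1 ending at -111. The match of Ifih1 lay after the start site, at 33 to 42.

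None of the 9 interferon-stimulated genes passed the test for a difference between OPA1 BKO and WT mice, in either direction. By comparison, 20.8% of all genes tested were called higher and 20.2% were called lower in OPA1 BKO BAT. The 9 log2 fold changes ran from -0.14 (Stat2) to 0.40 (Usp18), with a median of 0.085 beside 0.010 for all genes tested. At an unadjusted p under 0.05 the count was also 0 by edgeR, and DESeq2 called none of the 9. In CPM, OPA1 BKO and WT values overlapped for all 9 genes. Every OPA1 BKO mouse lay above or below every WT mouse for 9.96% of all genes, so 0 of 9 is near that share. Over both sexes, all 9 of the 95% confidence intervals lay between -1 and 1 on the log2 scale. They reached at most 0.85 upwards (Usp18) and -0.55 downwards (Rsad2). Within sex this held for only 6 of the 9 genes in females, with an interval up to 1.32, and for 8 in males, with an interval down to -1.17.

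**Figure D1:**
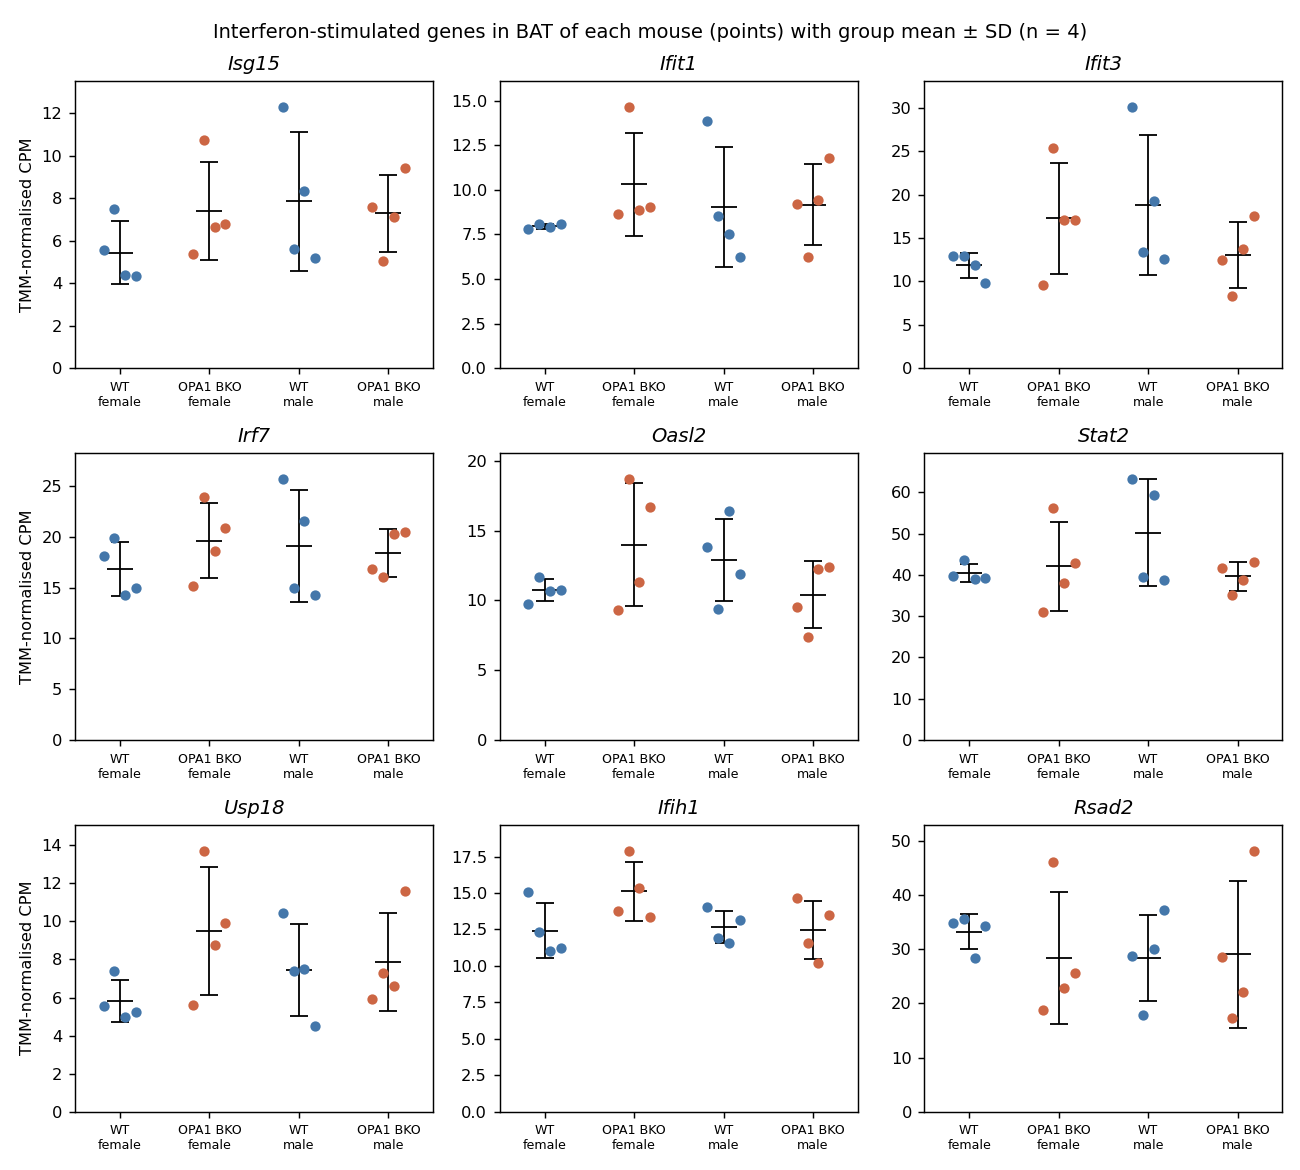
TMM-normalised CPM (y axis, from 0) of the 9 genes in each of 16 mice, by group of genotype and sex; points are mice in the order 1 to 4 and bars give the group mean ± SD (n = 4). The groups overlap in every panel, except that the 4 OPA1 BKO females lie above the 4 WT females for Ifit1.

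The effector genes come first. Isg15 (ENSMUSG00000035692, chr4:156199424-156200818 on GRCm38, minus strand) encodes a ubiquitin-like protein that is attached to other proteins in interferon-treated cells. Its CPM was 5.56, 7.46, 4.37 and 4.35 in WT females 1 to 4 and 5.37, 10.8, 6.66 and 6.79 in OPA1 BKO females. In males it was 12.3, 5.60, 8.31 and 5.19 in WT and 7.60, 5.03, 7.11 and 9.40 in OPA1 BKO mice. The highest of all 16 mice was a WT male, and the genotypes overlapped in each sex. The log2 fold change was 0.17 (SE 0.21, 95% confidence interval -0.28 to 0.62, adjusted p = 0.554).

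Ifit1 (chr19:34640871-34650009, plus strand) encodes a protein that binds viral RNA lacking the host's cap methylation. In females its CPM was 7.78, 8.08, 7.93 and 8.07 in WT and 8.64, 14.6, 8.90 and 9.06 in OPA1 BKO mice. In males it was 13.9, 8.55, 7.55 and 6.22 in WT and 9.20, 6.25, 9.42 and 11.8 in OPA1 BKO mice. Every OPA1 BKO female was above every WT female, which was true, in one direction or the other, of 23.2% of all genes tested in females. In males the groups overlapped for all 9 genes, and 30.8% of all genes tested showed no overlap there. Over both sexes the log2 fold change of Ifit1 was 0.20 (SE 0.17, 95% confidence interval -0.17 to 0.56, adjusted p = 0.382).

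Ifit3 (chr19:34583531-34588731, plus strand) encodes a partner of IFIT1. Its CPM was 12.9, 12.9, 11.9 and 9.84 in WT females and 9.62, 25.3, 17.1 and 17.1 in OPA1 BKO females. In males it was 30.1, 13.4, 19.2 and 12.6 in WT and 12.4, 8.36, 13.7 and 17.6 in OPA1 BKO mice. Females and males thus leaned in opposite directions, and the log2 fold change over both was 0.0066 (SE 0.25, 95% confidence interval -0.52 to 0.53, adjusted p = 0.986). Of the 31-base words in its transcript, 61.8% also occur in Ifit3b, so reads can be divided between the 2 genes and the level of Ifit3 is uncertain by that division. Ifit3b itself had means of 3.99 CPM in OPA1 BKO and 3.49 CPM in WT mice (log2 fold change 0.21, adjusted p = 0.557). For Ifit1 the shared words came to 10.5% and for Isg15 to 12.8%, and for the other 6 genes to at most 1.85%.

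Oasl2 (chr5:114896936-114912234, plus strand) encodes an oligoadenylate synthetase-like antiviral protein. Its CPM was 9.77, 11.7, 10.7 and 10.8 in WT females and 9.29, 18.7, 11.3 and 16.7 in OPA1 BKO females. For males it was 13.8, 9.41, 16.4 and 11.9 in WT and 9.56, 7.38, 12.2 and 12.4 in OPA1 BKO mice. The 4 WT females were close together and lay inside the wider range of the OPA1 BKO females. The log2 fold change was 0.039 (SE 0.18, 95% confidence interval -0.33 to 0.41, adjusted p = 0.878).

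Rsad2 (chr12:26442746-26456452, minus strand) encodes viperin, an enzyme that makes a chain-terminating ribonucleotide. Its CPM was 34.9, 35.5, 28.4 and 34.3 in WT females and 18.9, 46.1, 22.9 and 25.6 in OPA1 BKO females. Males had 28.7, 17.9, 30.1 and 37.1 in WT and 28.6, 17.4, 22.1 and 48.2 in OPA1 BKO mice. In each OPA1 BKO group 1 mouse stood well above the other 3. The log2 fold change was -0.099 (SE 0.22, 95% confidence interval -0.55 to 0.36, adjusted p = 0.739).

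Ifih1 (chr2:62595798-62646255, minus strand) encodes MDA5, a cytosolic sensor of long double-stranded RNA. Its CPM was 15.1, 12.3, 11 and 11.2 in WT females and 13.8, 17.9, 15.3 and 13.4 in OPA1 BKO females. The male CPM was 14.03, 11.9, 11.6 and 13.1 in WT and 14.6, 11.6, 10.2 and 13.5 in OPA1 BKO mice. The groups overlapped in each sex, and its confidence interval was the narrowest of the 9. The log2 fold change was 0.13 (SE 0.10, 95% confidence interval -0.085 to 0.35, adjusted p = 0.324).

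Of the transcription factors, Irf7 (chr7:141262706-141266481, minus strand) drives type I interferon genes and amplifies the response. Its CPM was 18.2, 19.9, 14.2 and 14.99 in WT females and 15.1, 24.0, 18.6 and 20.9 in OPA1 BKO females. Male values were 25.7, 14.9, 21.6 and 14.2 in WT and 16.8, 16, 20.3 and 20.5 in OPA1 BKO mice. The lowest and the highest of the 16 mice were both WT, with a log2 fold change of 0.085 over all mice (SE 0.13, 95% confidence interval -0.20 to 0.37, adjusted p = 0.641). Irf7 overlaps Phrf1 on the other strand, and whether the counting used strand was not given in the sources used here, so its level is uncertain by any reads that fit both.

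Stat2 (chr10:128270559-128292849, plus strand) encodes the STAT that carries the type I signal to the ISRE. Its CPM was 39.8, 43.6, 39.1 and 39.3 in WT females and 30.9, 56.3, 38.1 and 42.9 in OPA1 BKO females. In males the values were 63.3, 39.6, 59.4 and 38.7 in WT and 41.8, 35.0, 38.7 and 43.1 in OPA1 BKO mice. WT males 1 and 3 lay well above WT males 2 and 4, and the OPA1 BKO males lay close to the lower pair. The log2 fold change was -0.14 (SE 0.13, 95% confidence interval -0.42 to 0.13, adjusted p = 0.407).

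Usp18 (chr6:121245906-121270917, plus strand) encodes the protease that removes ISG15 from proteins and restrains signalling at the interferon receptor. Its CPM was 5.56, 7.40, 4.998 and 5.25 in WT females and 5.58, 13.7, 8.78 and 9.93 in OPA1 BKO females. Among males it was 10.4, 7.40, 7.47 and 4.50 in WT and 5.94, 7.27, 6.63 and 11.6 in OPA1 BKO mice. OPA1 BKO females 2 to 4 were above all WT females and OPA1 BKO female 1 was not. Usp18 had the highest fold of the 9 genes, with a log2 fold change of 0.40 (SE 0.21, 95% confidence interval -0.05 to 0.85, adjusted p = 0.148).

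Within sex, 0 of 9 genes were called in females and 0 of 9 in males. Called genes made up 8.96% (higher) and 9.03% (lower) of all genes tested in females and 17.9% (higher) and 16.9% (lower) in males. In females 8 of the 9 log2 fold changes were above 0, with a median of 0.37 and a range from -0.23 (Rsad2) to 0.71 (Usp18). Usp18 was the only one with an unadjusted p under 0.05 there (95% confidence interval 0.10 to 1.32, adjusted p = 0.099). In males 3 were above 0, with a median of -0.054 and a range from -0.53 (Ifit3) to 0.082 (Usp18). The medians of all genes tested were 0.014 in females and 0.0044 in males. OPA1 BKO female 2 had the highest CPM of its group for 9 of 9 genes, and without it the female median was 0.19, with 7 of 9 above 0. Leaving out any other single female left 8 of 9 above 0. The median was then between 0.34 (without OPA1 BKO female 4) and 0.45 (without OPA1 BKO female 1). In males, 6 of 9 were above 0 without WT male 1 (median 0.037) and also without OPA1 BKO male 2 (median 0.013), and 0 of 9 were above 0 without OPA1 BKO male 4 (median -0.25).

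The difference between the sexes was tested as an interaction. It was called for 0 of the 9 genes, and for 0.115% of all genes tested. The male log2 fold change was below the female one for 8 of 9 genes. An unadjusted p under 0.05 was found for Ifit3, with a difference of -1.07 (SE 0.43, adjusted p = 0.299), and for Oasl2, with a difference of -0.70 (SE 0.32, adjusted p = 0.362). How many of all genes passed that unadjusted level was not counted. A difference between females and males was therefore not shown for any of them at this number of mice.

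**Figure D2:**
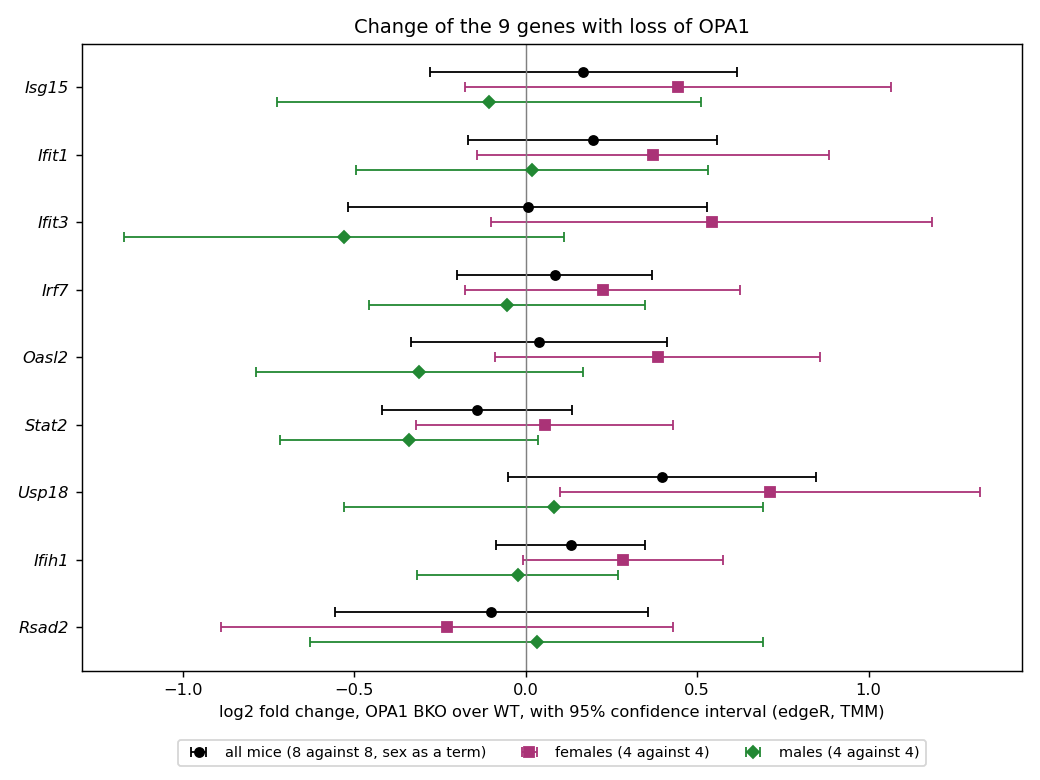
Log2 fold change of OPA1 BKO over WT (x axis) for each of the 9 genes, over all mice (circles), females (squares) and males (diamonds); bars are 95% confidence intervals from edgeR. All 9 intervals over both sexes include 0, and the interval in females excludes 0 only for Usp18, whose adjusted p was 0.099.

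The levels of the 9 genes can be compared with each other only per length, in TPM. In WT mice Stat2 was highest at 14.1 ± 3.30 TPM (SD, n = 8), followed by Isg15 at 9.34 ± 3.69, Irf7 at 9.13 ± 1.99, Ifit3 at 8.10 ± 3.39 and Rsad2 at 7.24 ± 1.61. Oasl2 had 5.83 ± 1.08, Usp18 3.96 ± 1.11, Ifit1 2.87 ± 0.805 and Ifih1 2.47 ± 0.341 TPM. The order was the same in OPA1 BKO mice, from Stat2 at 23.4 ± 4.47 to Ifih1 at 5.37 ± 0.849 TPM. No 2 neighbours in either order differed by more than the sum of their SDs. These are middling levels for this tissue, from the 37.5th percentile (Ifih1) to the 72.9th (Stat2) of all genes tested in WT. The lowest library held 65 estimated counts of Usp18, so no comparison above rested on counts near 0.

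The TPM means of OPA1 BKO mice were 1.66 times (Stat2) to 2.49 times (Usp18) those of WT mice, unlike the CPM values above. The same was seen across the transcriptome. Without TMM, on total counts alone, the median log2 fold change of all genes tested was 0.57, that of the 9 genes was 0.64, and 7 of the 9 were called higher, beside 69.5% of all genes tested. On log2(TPM + 0.5) with limma, the median of all genes was 0.81, that of the 9 genes was 0.98, and 9 of 9 were called higher, beside 86.2% of all genes. When the mitochondrial genome was left out and total counts alone were used, a setting added after the data were seen, the medians were 0.22 and 0.29 and 2 of 9 genes were called higher, beside 39.1% of all genes. The median of the 9 genes stood 0.071 to 0.16 above the median of all genes under each of these scalings and 0.076 above it under RLE scaling. Scalings of counts differ by 1 factor per library, which moves all genes by about the same amount. Their near-equal gaps were therefore fixed in advance and are not separate results. Transcripts of the mitochondrial genome took 12.1% of TPM in OPA1 BKO and 37.2% in WT mice.

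**Figure D3:**
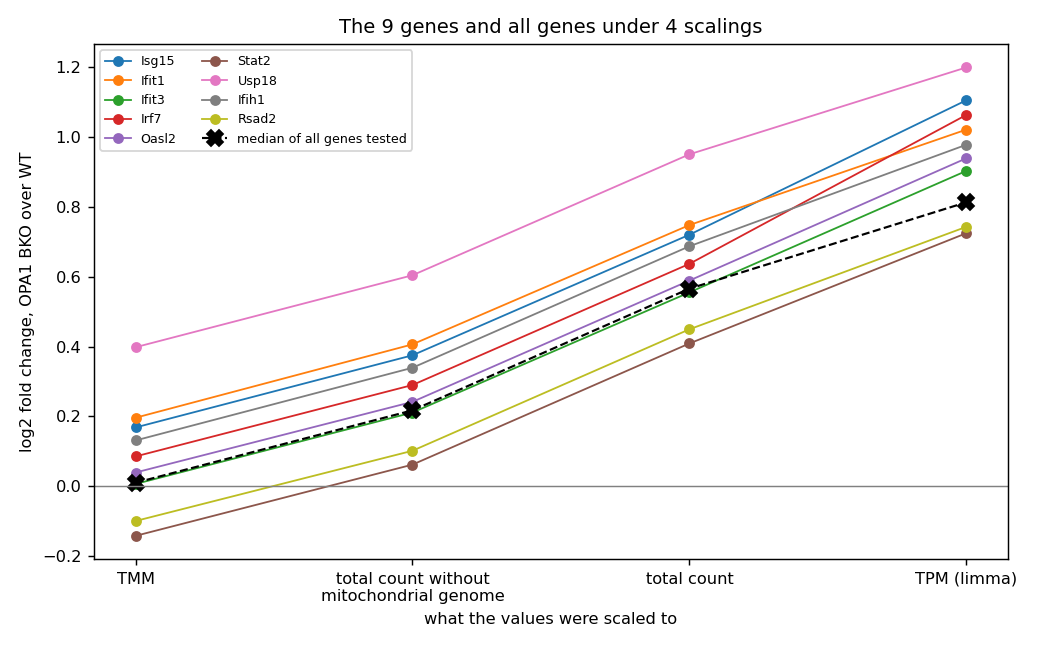
Log2 fold change of OPA1 BKO over WT (y axis) of the 9 genes (coloured points) and the median of all genes tested (black crosses, dashed line) under 4 scalings (x axis). The 9 genes move up with the median of all genes, which goes from 0.010 under TMM to 0.81 in TPM, while their own median goes from 0.085 to 0.98.

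Between mice of the same group the 9 genes moved together. After the mean of its group was taken from each log2 CPM value, all 36 pairs of the 9 genes were positively correlated over the 16 mice, with Pearson's r from 0.094 (Oasl2 and Ifih1) to 0.924 (Isg15 and Irf7) and a median of 0.704. These values share libraries and their scaling, and they are given as a description. OPA1 BKO female 2 was on average 0.51 above its group on the log2 scale, and WT male 1 was 0.43 above. OPA1 BKO male 4 was 0.38 above its group, with the highest CPM for 8 of 9 genes. OPA1 BKO female 1 was 0.44 below its group and lowest for 8 of 9 genes, and OPA1 BKO male 2 was 0.36 below and lowest for 7. High mice occurred in both genotypes and both sexes, and single deviations ran from -0.76 to 0.84 on the log2 scale, beside genotype effects from -0.14 to 0.40.

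**Figure D4:**
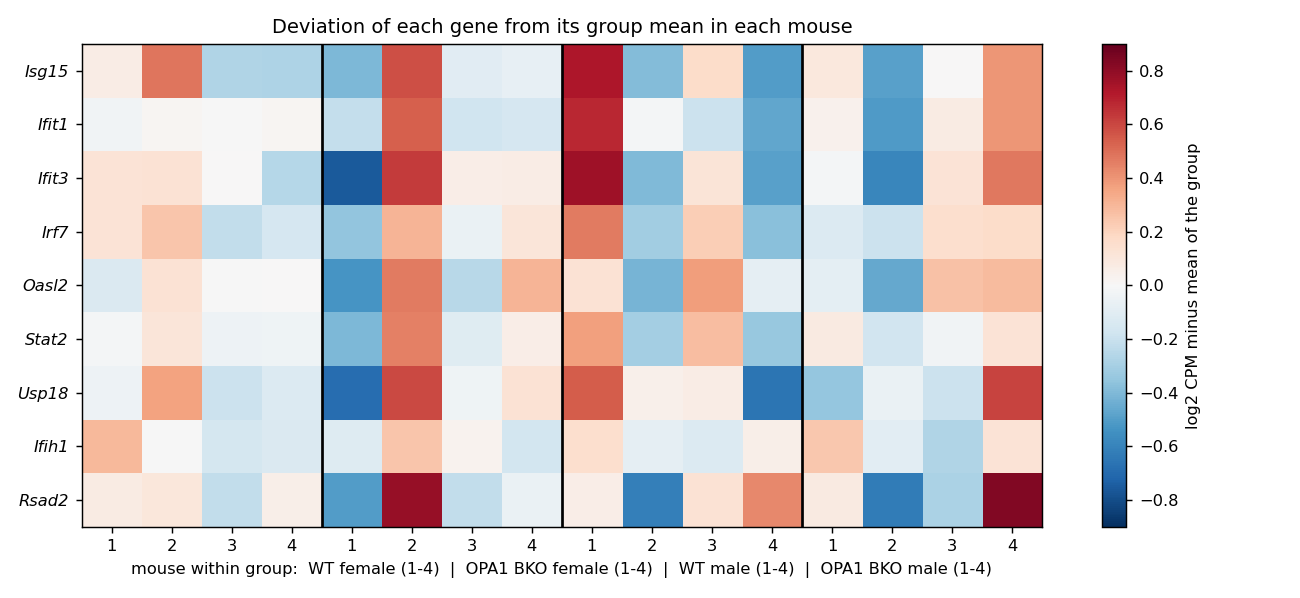
Deviation of log2 CPM from the mean of the group (colour scale) for the 9 genes (vertical) in the 16 mice (horizontal, 4 per group, black lines between groups). Columns tend to be of 1 colour: OPA1 BKO female 2, WT male 1 and OPA1 BKO male 4 are high, and OPA1 BKO female 1 and OPA1 BKO male 2 are low.

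The 8 other tested genes whose deviations over the 16 mice were most like the mean of the 9 genes were Irf9 (r = 0.919), Parp14 (0.915), Ifit2 (0.914), Rtp4 (0.906), Iigp1 (0.881), Xaf1 (0.873), Tgtp1 (0.866) and Trim34a (0.864). All 8 are on the lists of interferon genes used here, and 0 of the 8 were called between genotypes, with log2 fold changes from -0.13 (Trim34a) to 0.11 (Rtp4). Marker lists of cell types were set beside the same mean profile in the same way. Its r was 0.546 with 13 T, B and NK lymphocyte markers, 0.308 with 9 dendritic cell markers and -0.047 with 14 macrophage markers. For 12 brown adipocyte markers r was -0.26, for 10 endothelial markers -0.126 and for 10 fibroblast and preadipocyte markers -0.149. With 2 neutrophil markers it was 0.147. It was 0.134 with 10 skeletal muscle markers, whose summed level ran from 48.7 to 16090 CPM over the 16 mice.

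The other genes of the pathway were taken from lists. Calls on total counts alone are set beside those under TMM. Those under TMM are to be read against 20.8% of all genes called higher and 20.2% called lower. Those on total counts are to be read against 69.5% of all genes called higher and 2.39% called lower. Of the ligands, none of 20 interferon genes passed the filter on low counts. They were 13 genes of the alpha family and Ifnab, Ifnb1, Ifne, Ifnk, Ifnl2, Ifnl3 and Ifng. Of these, 16 were listed at 0 in all 16 mice, and Ifna16, Ifnb1 and Ifnk reached about 1 count in a WT library and were at 0 in OPA1 BKO mice. Ifng, the interferon of T and NK cells, had at most 4 counts in WT and at most 3 in OPA1 BKO libraries. A count of 0 allows up to 3 counts of a library's total, for counting error only. No difference in ligand genes was therefore detectable at this depth.

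Of 12 receptors and signalling genes 3 rose (25.0%) and 3 fell (25.0%) relative to all genes (TMM), beside 20.8% and 20.2% of all genes. The median log2 fold change was -0.11, whereas on total counts alone 11 were called higher and 0 lower. Jak1, the kinase that serves all interferon receptors, rose from 83.1 ± 9.50 to 174 ± 21.2 CPM (SD, n = 8; log2 fold change 1.06, adjusted p = 1.56e-07). Ifngr2 rose by 0.49 (adjusted p = 0.012) and Jak2 by 0.25 (adjusted p = 0.020), all on the log2 scale. Ifnar2, the signalling chain of the type I receptor, fell by 0.30 (adjusted p = 0.0049). Ifngr1 fell by 0.43 (adjusted p = 0.0030) and Tyk2, the kinase paired with IFNAR1, by 0.27 (adjusted p = 0.000564). Irf9, a partner of STAT2 at the ISRE, did not pass the test, with a value of 0.10 (adjusted p = 0.531).

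Of 23 nucleic acid sensors and their adaptors 9 rose (39.1%) and 2 fell (8.7%) under TMM, beside 20.8% and 20.2% of all genes. The median log2 fold change was 0.26, and on total counts alone 23 of 23 were called higher, beside 69.5% of all genes. Cgas and Tmem173 of the cytosolic DNA route did not pass the test. Cgas had a mean of 1.51 CPM in OPA1 BKO and 1.41 in WT mice (adjusted p = 0.629), and Tmem173, which encodes STING, had 8.58 and 8.11 CPM (adjusted p = 0.611). Mavs, the adaptor of RNA sensing on mitochondria, had a log2 fold change of -0.098 (adjusted p = 0.401) and Tbk1 of -0.068 (adjusted p = 0.605). Ddx58, the RNA sensor RIG-I, rose by 0.26 (adjusted p = 0.034), and Irf3, the factor that TBK1 activates, fell by 0.18 (adjusted p = 0.025). Among called genes the largest rises were in Tlr8 (1.43, adjusted p = 0.0012), Irf5 (1.34, adjusted p = 0.000255), Tlr7 (0.81, adjusted p = 0.0083) and Aim2 (0.72, adjusted p = 0.010). Tlr9, at 0.93, did not pass the test (adjusted p = 0.057). Levels were low, with WT means of 0.44 CPM for Tlr8, 0.92 for Tlr7, 0.83 for Aim2 and 0.41 for Tlr9. Tlr7 and Tlr8 encode endosomal RNA sensors, Irf5 a transcription factor and Aim2 a cytosolic DNA sensor of the inflammasome.

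Macrophage and monocyte markers moved in the same comparison. Of 14 such markers 10 rose and 1 fell, with a median log2 fold change of 0.80, and on total counts alone 11 were called higher and 0 lower. Their summed level was 138 to 205.6 CPM in WT females, 170.7 to 423 in OPA1 BKO females, 134.7 to 161 in WT males and 249.8 to 612 in OPA1 BKO males, and none was at 0. Lyz2 rose from 43.8 ± 5.17 to 167 ± 78.8 CPM and Itgam from 2.22 ± 0.564 to 8.46 ± 2.78 CPM (SD, n = 8). Mertk was the marker that fell, with a log2 fold change of -0.65 (adjusted p = 0.0013), so the markers did not all move 1 way. T, B and NK lymphocyte markers went the other way, with 0 of 13 higher and 4 lower under TMM, but 1 higher and 1 lower on total counts alone. Cd79a of B cells fell by 1.29 on the log2 scale (adjusted p = 0.000187). Their summed level ran from 6.10 to 10.4 CPM in OPA1 BKO and from 8.44 to 19.3 CPM in WT mice. The part that either cell type has in the levels of the 9 genes or of the sensors was not tested.

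Among 81 other interferon-stimulated genes, 77 were tested, 15 rose and 7 fell, with a median log2 fold change of 0.066, whereas on total counts alone 69 were called higher and 0 lower, beside 69.5% and 2.39% of all genes. Under TMM the calls are 19.5% and 9.09% of the 77, beside 20.8% and 20.2% of all genes tested. The largest rises were in genes of low level, Ifit1bl1 (0.150 to 0.484 CPM, log2 fold change 1.57, adjusted p = 0.0084) and Apol9a (0.250 to 0.576 CPM, 1.18, adjusted p = 0.012), followed by Mx1 (0.75, adjusted p = 0.038) and Phf11b (0.64, adjusted p = 0.013). Mx1 encodes a dynamin-like antiviral protein, and C57Bl/6 mice are known to carry a defective allele of it. The largest falls were in Uba7, the activating enzyme for ISG15 (-0.41, adjusted p = 0.038), Parp10 (-0.40, adjusted p = 0.0026), Helz2 (-0.40, adjusted p = 0.00039) and Mndal (-0.36, adjusted p = 0.023). In females 10 were called higher and 1 lower, beside 8.96% and 9.03% of all genes, with a median of 0.24. In males 5 were called higher and 11 lower, beside 17.9% and 16.9% of all genes, with a median of -0.11. The interaction was called for 0 of the 77, and 18 of them had an unadjusted p under 0.05. The share of all genes at that unadjusted level was not counted, so the 18 cannot be set beside it.

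On total counts alone, 11 of 26 tested genes that respond to interferon gamma were called higher and 0 lower. Under TMM their median log2 fold change was -0.026, and 6 rose (23.1%) and 0 fell, beside 20.8% and 20.2% of all genes. The 6 were Irf8, a factor of myeloid cells (1.11, adjusted p = 0.000304), Ciita, the activator of MHC class II genes (1.06, adjusted p = 0.0010), and the MHC class II genes H2-Ab1 (0.79, adjusted p = 0.0039), H2-Eb1 (0.76, adjusted p = 0.0033), and 2 further genes of the class II pathway. MHC class II is a product of antigen-presenting cells. Of 9 tested markers of plasmacytoid and conventional dendritic cells 4 rose and 1 fell under TMM. The rises were in Itgax (2.15), Flt3 (1.24), Xcr1 (1.17) and Clec9a (0.42), and the fall was in Siglech (-0.71, adjusted p = 0.027). On total counts alone 7 were called higher and 0 lower. The part that these cells or macrophages have in the class II levels was not tested. The other 20 tested genes, most of them guanylate-binding proteins, immunity-related GTPases and chemokines, did not pass the test.

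The calls of MHC class I presentation genes turned in direction with scaling. Their median lay below that of all genes both under TMM and on total counts. Under TMM 8 of 21 genes fell (38.1%) and 1 rose (4.76%), beside 20.2% and 20.8% of all genes. The median log2 fold change was -0.30, beside 0.010 for all genes. On total counts alone 11 were called higher (52.4%, beside 69.5% of all genes) and 0 lower. The median there was 0.26, beside 0.57 for all genes. In males under TMM 11 fell and 2 rose, beside 16.9% and 17.9% of all genes. The falls were largest in the class I genes H2-Q6 (-0.59, adjusted p = 0.031) and H2-Q7 (-0.56, adjusted p = 0.012), the proteasome activator subunit Psme2 (-0.52, adjusted p = 0.00025) and tapasin, Tapbp (-0.50, adjusted p = 9.42e-06). Near-identical class I genes share reads, so H2-Q6 and H2-Q7 are uncertain as single genes. The gene that rose was Pdia3, a chaperone of the endoplasmic reticulum (0.22, adjusted p = 0.013).

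Of 21 negative regulators of interferon signalling 9 rose (42.9%) and 1 fell (4.76%) under TMM, beside 20.8% and 20.2% of all genes. On total counts alone 17 were called higher and 0 lower. Ptpn6, a phosphatase of blood cells, rose by 0.78 (adjusted p = 0.0043), Irf2bp2 by 0.73 (adjusted p = 0.0043), Rnaseh2b by 0.60 (adjusted p = 0.0011) and Tnfaip3 by 0.51 (adjusted p = 0.019), while Rnaseh2c fell by 0.79 (adjusted p = 8.95e-05). Of 22 genes that handle or release mitochondrial nucleic acids 9 rose (40.9%) and 8 fell (36.4%) under TMM, and 17 were called higher and 0 lower on total counts alone. Lonp1, the matrix protease, rose from 212 ± 17.7 to 796 ± 189.7 CPM (SD, n = 8; log2 fold change 1.88, adjusted p = 2.20e-09). The nuclease gene Exog rose by 0.67 (adjusted p = 0.00089) and Vdac3, a channel of the outer membrane, by 0.49 (adjusted p = 7.49e-05). Slirp, which stabilises mitochondrial mRNA, fell by 0.47 (adjusted p = 0.00052) and Tk2, a kinase that supplies nucleotides for mitochondrial DNA, by 0.42 (adjusted p = 0.0015).

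**Figure D5:**
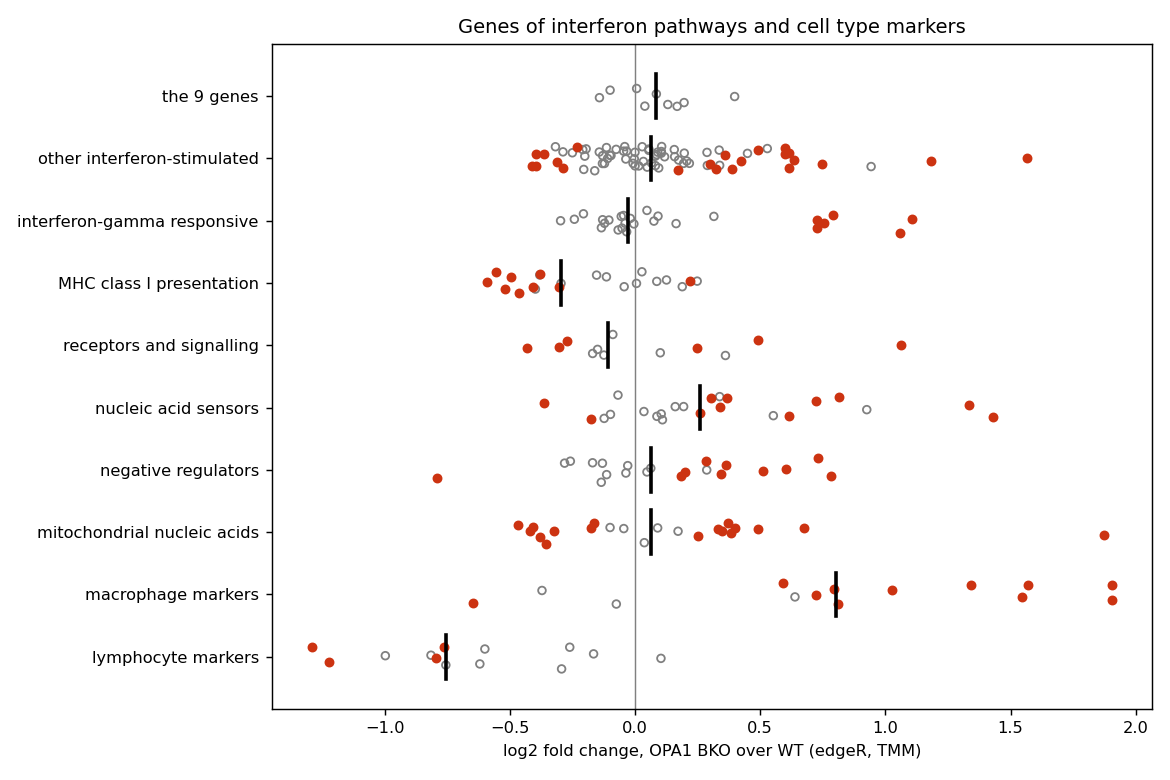
Log2 fold change of OPA1 BKO over WT (x axis) of each tested gene in 10 lists (y axis); filled points passed an adjusted p of 0.05 by edgeR, open points did not, and black bars are list medians. The 9 genes are all open with a median of 0.085. The median was 0.066 for the other interferon-stimulated genes, -0.30 for MHC class I genes and 0.80 for macrophage markers. On total counts alone the median of the MHC class I genes was 0.26, beside 0.57 for all genes.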

How the data were processed

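RNA of BAT from 16 mice was sequenced after a stranded kit for polyadenylated RNA. The submitters' processing notes name kallisto 0.45.0 and mm10, and the transcript set and strand setting are not given in the sources used here. For each mouse the authors deposited an estimated count and a TPM per transcript. The deposited estimated counts are not normalized and need not be whole, and the deposited TPM values are scaled by effective length to 1 total per mouse. Of 135308 transcripts, 133284 were matched by identifier to GENCODE M21 (GRCm38) and summed over 51060 genes. The 2024 others held 0.483 to 0.730% of the counts and were left out.

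Gene counts were rounded, filtered (filterByExpr with a minimum count of 10 and a total of 15), scaled by TMM and tested in edgeR 4.0.16 on R 4.3.3 with the quasi-likelihood test. Genotype was tested over all mice with sex as a term. Sexes and the interaction were contrasts of a model with 4 group means. Calls required a Benjamini-Hochberg adjusted p below 0.05 over 15632 genes. TMM-normalised CPM used effective library sizes. Likeness used log2 CPM with a prior count of 2. The procedure was tested on simulated data with known rises and falls in equal number. Those data held no shift in the share of mitochondrial transcripts, so they do not test the choice of scaling. Alternatives were DESeq2 1.42.0, limma 3.58.1 on log2(TPM + 0.5), other scalings and filters, no term for sex, and leaving out each mouse.

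The 9 genes and all gene lists were chosen with earlier results of these data known. Named genes were the 9 and Opa1, any ligand, receptor, signalling or sensor gene, and from each other list at most the 4 largest and 4 smallest called changes and the ends of a printed range. Ucp1 and Ifit3b were named for the checks they serve, and Cxcl9 and Cxcl10 after their values were seen. The labels do not say that replicates are from separate litters, and p-values measure the spread between these mice. Replicate numbers follow accession order, and the labels do not say whether that order reflects pairs or litters. A second workflow that the methods describe, with alignment to the genome, was not analysed here. One signalling gene of the lists is not reported here by name.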

Additional observations from a re-analysis of the deposited data

Results flagged for a closer look

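In each of the 36 sets of 4 mice (9 genes in 4 groups), the highest or lowest mouse was compared with the other 3 by its gap to the nearest one as a share of the whole range, and 3 sets passed Dixon's 95% critical value for 4 samples. Chance alone gives about 1 in 20. Ifit1 reached 14.64 CPM in OPA1 BKO female 2, with a gap of 0.931 of the range. Stat2 was 43.63 CPM in WT female 2 (0.835 of the range), the highest of its group. Rsad2 was 28.36 CPM in WT female 3 (0.832 of the range), the lowest of its group.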

How the results depend on the processing

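The count of 0 genes called between genotypes was the same with DESeq2, RLE scaling, no filter, a minimum of 1 TPM, the mitochondrial genome left out under TMM, counts scaled from TPM, no term for sex, and without each mouse in turn. It depended on scaling. On total counts alone 7 of 9 were called higher, in females 8 and in males 4, beside 69.5%, 56.9% and 60.8% of all genes. With limma on TPM the counts were 9, 8 and 8, beside 86.2%, 77.8% and 78.6% of all genes. Without the mitochondrial genome on total counts, a setting chosen after seeing the data, they were 2, 2 and 0, beside 39.1%, 20.8% and 34.1%. The median log2 fold change was then 0.64, 0.98 and 0.29, and ranged from 0.025 to 0.18 without each mouse. Calls in females ranged from 0 to 1 without each mouse. The 1 was Usp18 (0.90, adjusted p = 0.045) without OPA1 BKO female 1. The other interferon-stimulated genes gave 69, 77 and 29 higher and 0, 0 and 0 lower in those settings, 3 lower with no filter, and 4 to 8 lower without each mouse, lowest without OPA1 BKO male 2.

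Signs turned as follows. On total counts alone the log2 fold change was 0.41 for Stat2 and 0.45 for Rsad2, 0.27 for Rsad2 in females, and in males 0.49 for Isg15, 0.068 for Ifit3, 0.55 for Irf7, 0.29 for Oasl2, 0.26 for Stat2 and 0.59 for Ifih1. With limma on TPM it was 0.72 for Stat2 and 0.74 for Rsad2, 0.54 for Rsad2 in females, and in males 0.96 for Isg15, 0.53 for Ifit3, 1.02 for Irf7, 0.76 for Oasl2, 0.64 for Stat2 and 0.93 for Ifih1. Without the mitochondrial genome on total counts it was 0.062 for Stat2 and 0.10 for Rsad2, and in males 0.13 for Isg15, 0.18 for Irf7 and 0.22 for Ifih1. It was 0.046 for Ifih1 and 0.015 for Irf7 in males with no filter, 0.050 for Ifih1 in males with counts scaled from TPM, and -0.0142 for Ifit3 with no term for sex.

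Without each mouse in turn, values around 0 changed sign, with ranges of -0.14 to 0.19 for Ifit3 and -0.064 to 0.13 for Oasl2, and of -0.12 to 0.18 for Stat2 in females. In males the ranges were -0.28 to 0.20 for Isg15, -0.14 to 0.30 for Ifit1, -0.19 to 0.12 for Irf7, -0.17 to 0.29 for Usp18, -0.11 to 0.061 for Ifih1 and -0.33 to 0.22 for Rsad2. Why scaling moved all genes was not tested beyond the share of mitochondrial transcripts. No paired analysis was possible because the labels give the groups no shared replicate numbers.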

Other observations

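In the list of genes that respond to interferon gamma, the medians of the 2 sexes had opposite signs. Under TMM the median log2 fold change of 26 tested genes was 0.55 in females and -0.55 in males. For the interaction 12 had an unadjusted p under 0.05, but 0 were called by edgeR after adjustment over all genes tested. No share of all genes at the unadjusted level was counted to read the 12 against. The highest summed level of this list among OPA1 BKO females was 1673 CPM, beside a group median of 879.2. Cxcl9, of this list, and Cxcl10, of the list of other interferon-stimulated genes, were picked out after their values were seen. Cxcl9, a chemokine that draws T cells, had a log2 fold change of 0.28 in females (adjusted p = 0.225) and fell by 0.69 in males (adjusted p = 0.0026), with an adjusted p of 0.072 for the difference between the sexes. Cxcl10, a related chemokine, rose by 1.85 in females (adjusted p = 0.020) and had a value of 0.086 in males (adjusted p = 0.907), with an adjusted p of 0.295 for the difference. A sex difference was therefore not shown for either gene.

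Markers of other cells of the tissue also differed between genotypes. Calls under TMM are to be read against 20.8% of all genes called higher and 20.2% called lower. Of 12 brown adipocyte markers 2 rose and 4 fell under TMM, and 5 were called higher and 3 lower on total counts alone, where 69.5% of all genes were called higher. Elovl3, an enzyme of fatty acid elongation, rose from 13.03 ± 6.13 to 119 ± 83.1 CPM (SD, n = 8; log2 fold change 2.99, adjusted p = 3.68e-05), and Adipoq, which encodes adiponectin, fell by 1.38 on the log2 scale (adjusted p = 8.67e-06). Of 10 endothelial markers 6 fell under TMM, with Tie1, an endothelial receptor kinase, falling by 0.68 (adjusted p = 5.50e-07), but on total counts alone 4 were called higher and 0 lower. Of 10 fibroblast and preadipocyte markers 6 rose under TMM and 10 were called higher on total counts alone, with Dpp4, a surface peptidase, at a log2 fold change of 1.06 under TMM (adjusted p = 0.0060).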
